A study of Mus musculus with 7 samples.

Results

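The sections examined here are cryosections of non-dystrophic mouse tibialis anterior, a muscle that lifts the foot, that carried the most RNA of 4 genes of the myotendinous junction and tendon (Col22a1, Thbs4, Tnmd and Fmod). They were chosen by measured values: sections with a total of 1000 counts or more, and no less than 20% of their muscle's median, were scored by the summed CPM (counts scaled to the section total) of the 4 genes. The 20% of sections with the highest score in each muscle were taken and compared with the 50% that scored lowest in the same muscle. This gave 46 marker-rich sections (10 in WT-1, 13 in WT-2, 12 in Ctr-1 and 11 in Ctr-2) and 114 marker-poor sections, among 230 kept of 292 tabled non-dystrophic sections and 422 kept of 525 in the whole series. The other 70 non-dystrophic sections lay between both regions.

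RNA was sequenced section by section from 7 muscles: 3 labelled DMD, 2 labelled WT and 2 labelled Ctr. The series title names Duchenne muscular dystrophy, and the labels give no strain, allele, age or sex. Column names in the file headers carry mdx for DMD, pax7 for WT and hDMD for Ctr, which the labels do not explain. The labels do not state that each muscle came from its own animal. The p-values therefore reflect how far differences between regions varied among these muscles, which may be technical. The variance used for a gene also borrows from all tested genes, so it is not that gene's own spread alone. After summing, the marker-rich and marker-poor sums of the 4 non-dystrophic muscles held 2099419 to 12119249 counts each. Marker-poor sums were deeper in each muscle, with 12119249, 11029315, 8035561 and 5101155 counts in WT-1, WT-2, Ctr-1 and Ctr-2. The marker-rich sums held 2105247, 2099419, 3125331 and 3096479. Raw counts of sparse genes given below are not scaled for this depth.

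The myotendinous junction is where a muscle fibre ends in folds of its membrane and hands its force to the tendon. Integrins and the dystrophin complex span that membrane, collagen XXII (Col22a1) and thrombospondin 4 (Thbs4) lie on the matrix side, and tenocytes behind it make fibromodulin (Fmod), tenomodulin (Tnmd) and the collagens of the tendon. Nuclei at the fibre tip are known to transcribe a small set of genes of their own, as nuclei under the neuromuscular synapse do. A cryosection across a muscle holds whole fibres, vessels, nerve and matrix together, so a transverse slice near a junction is still mostly fibre.

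The score itself describes the choice of sections and is not a result. The marker-rich sections scored between 143 and 238 CPM in WT-1, 186 and 317 in WT-2, 55.2 and 94.0 in Ctr-1, and 59.9 and 170 in Ctr-2. The nearest sections just outside scored 134, 184, 54.7 and 59.9 CPM in the same order of muscles, and the highest marker-poor sections 72.3, 139, 35.7 and 43.8. Thbs4 made up 72.0 to 85.2% of the summed score of the marker-rich sections and Fmod 8.64 to 19.7%. Col22a1 gave 0.418 to 3.50% and Tnmd 0 to 4.85%, so the ranking of sections rested mainly on Thbs4. Col22a1 had 29 counts in all marker-rich sections together, against 20 in all marker-poor sections.

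**Figure D1:**
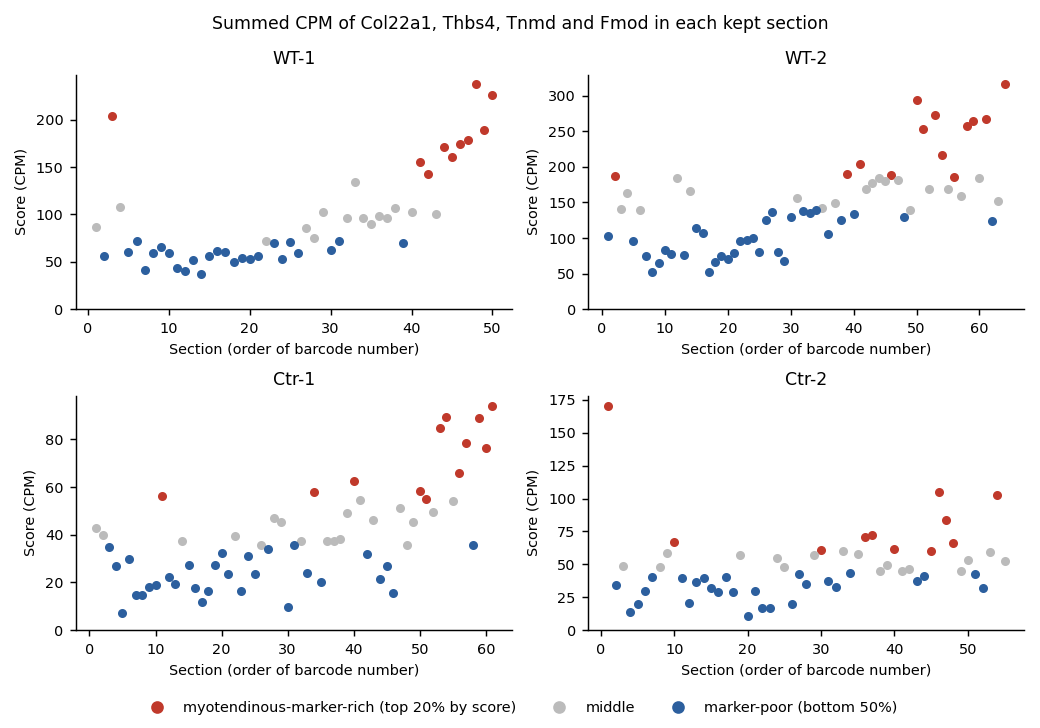
Score of each kept section (summed CPM of Col22a1, Thbs4, Tnmd and Fmod, vertical axis) against its place in barcode order (horizontal axis) in the 4 non-dystrophic muscles, with marker-rich sections in red, middle sections in grey and marker-poor sections in blue. Most red points lie late in barcode order, 9 of 10 in the last of 3 equal parts in WT-1 and 7 of 11 in Ctr-2, and each muscle has 1 or 2 of them in the first part.

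Marker-rich sections lay mostly at one end of the barcode order. In the last of 3 equal parts of that order were 9 of 10 marker-rich sections in WT-1, 10 of 13 in WT-2, 9 of 12 in Ctr-1 and 7 of 11 in Ctr-2. The first part held 1, 1, 1 and 2 of them in the same order of muscles, against 13, 15, 16 and 13 marker-poor sections. Across the kept sections of a muscle, the Spearman correlation of score with barcode order was 0.67, 0.64, 0.61 and 0.40. The labels do not say whether barcode number follows the order of cutting, so barcode order and position in the muscle cannot be told apart. Sections also differed in depth: median section totals were 211112, 134739, 241349 and 302622 counts in marker-rich sections of WT-1, WT-2, Ctr-1 and Ctr-2, against 464713, 319384, 257396 and 182313 in marker-poor sections. The marker-rich sections were shallower in 3 muscles and deeper in Ctr-2. With sections thinned to one total, 82 of 5064 tested genes were called, 64 of them among the 178 given next.

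Outside the 4 scoring genes, 178 of 8976 tested genes passed the threshold, a Benjamini-Hochberg adjusted p below 0.05 in edgeR's quasi-likelihood test with muscle as a block. That is 1.98% of the genes tested. Of those tested, 84 (0.936%) were higher in the marker-rich sections and 94 (1.05%) lower. These shares are the background for the counts of called list members below. Most differences were modest: the median absolute log2 fold of the called genes was 0.51, and 33 exceeded 1. Of the called genes, 171 had one sign in all 4 muscles, whereas 18.6% of all tested genes did. The test with muscle as a block favours genes that differ alike in each muscle, so this agreement is no separate support. Scaling by library size alone, without TMM factors, moved the median log2 fold of all genes to 0.08 and the split to 169 higher and 60 lower. Without WT-1 there were 94 calls, without WT-2 110, without Ctr-1 109 and without Ctr-2 167.

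Of the tendon matrix genes that had no part in the score, Cilp2, Angptl7, Prg4 and Prelp rose and Eln fell. The tendon matrix list had 29 genes, 22 of them abundant enough to test. Of these, 4 were higher (share over all tested genes 0.936%), 1 was lower (share over all 1.05%) and 17 did not pass. The median log2 fold was 0.19 over the 22, against 0.00 (0.0048) over all genes. All 4 that rose encode secreted products of tendon, cartilage or synovial lining. The summed level of all 29 genes was 628 to 745 CPM in marker-rich and 535 to 740 CPM in marker-poor sections. It was higher in marker-rich sections of each muscle, but barely so in Ctr-2 (741.6 against 740.4 CPM).

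Cilp2, a cartilage intermediate layer protein family member (8:69880369-69887687, GRCm38), had 11.7, 10.2, 1.01 and 2.28 CPM in marker-rich sections of WT-1, WT-2, Ctr-1 and Ctr-2, against 0.822, 1.22, 0 and 0.178 CPM in marker-poor sections. It was higher in every muscle, with its marker-rich level higher in both WT than in both Ctr muscles, and rests on few counts: 23, 18, 4 and 8 in marker-rich sections, against 9, 10, 0 and 1 in marker-poor ones. Its log2 fold was 3.50 ± 0.37 (standard error; edgeR adjusted p = 1.64e-06). Angptl7, a secreted angiopoietin-like protein (4:148495183-148500460), had 6.60, 8.49, 13.7 and 3.14 CPM in marker-rich sections, against 2.01, 2.31, 2.07 and 1.96 CPM in marker-poor sections. The groups did not overlap, and the log2 fold was 2.00 ± 0.26 (edgeR adjusted p = 4.53e-05). Prg4 encodes lubricin, the lubricant of joints and gliding tendon surfaces (1:150449412-150466165). It had 7.11, 6.79, 11.9 and 2.28 CPM in marker-rich sections, against 1.92, 2.31, 3.32 and 0.889 CPM in marker-poor sections. Ctr-2 was the lowest in both regions, and the log2 fold was 1.74 ± 0.23 (edgeR adjusted p = 4.77e-05). Prelp, a leucine-rich proteoglycan that binds collagen, averaged 19.9 ± 6.39 CPM in marker-rich sections and 13.1 ± 3.94 CPM in marker-poor sections (SD, n = 4 muscles each), a log2 fold of 0.64 ± 0.16 (edgeR adjusted p = 0.0258). Without Ctr-1 or WT-1 Prelp no longer passed.

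The other matrix members were uneven. Chad (chondroadherin), chosen for mention after its values were seen, had 47.2, 28.3, 1.01 and 7.13 CPM in marker-rich sections, against 1.64, 9.01, 0.414 and 1.25 CPM in marker-poor sections. It was higher in each muscle but its log2 fold of 2.88 ± 0.74 did not pass (edgeR adjusted p = 0.289). Eln (elastin), the member that fell, averaged 20.3 ± 5.19 CPM in marker-rich sections and 30.1 ± 6.70 CPM in marker-poor sections (SD, n = 4 each), a log2 fold of -0.51 ± 0.12 (edgeR adjusted p = 0.0182). Of the 7 members too sparse to test, Comp had 13 counts in marker-rich and 16 in marker-poor sections, Kera 20 in marker-rich and 22 in marker-poor, and Tnc 2 in marker-rich and 6 in marker-poor sections. Outside every list, and chosen after the values were seen, the collagens Col8a2 and Col11a2 rose with log2 folds of 1.96 ± 0.45 and 2.30 ± 0.48 (edgeR adjusted p = 0.0163 and 0.00741). Col8a2 was higher in all 4 muscles; Col11a2 had 0.285 CPM in marker-rich and 0.356 CPM in marker-poor sections of Ctr-2 and was higher in the other 3.

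The common collagens and the cell-adhesion machinery did not pass in the main comparison. None of 10 tested fibrillar and associated collagens was called, and their median log2 fold was -0.01. The summed level of all 14 listed was 122 to 531 CPM in marker-rich and 88.8 to 319 CPM in marker-poor sections. This sum was higher in marker-rich sections of each muscle. Col1a1, the main chain of tendon collagen I, had 228, 158, 18.0 and 60.8 CPM in marker-rich sections, against 54.7, 109.9, 11.6 and 45.2 CPM in marker-poor sections. It was higher in all 4 muscles, most of all in WT-1, and its log2 fold of 1.02 ± 0.40 missed the threshold (edgeR adjusted p = 0.5005). Without WT-1 the Col1a1 log2 fold was smaller, 0.50, but passed (edgeR adjusted p = 0.00939). Col1a2, its partner chain, had a log2 fold of 0.59 ± 0.20 (edgeR adjusted p = 0.329). It did pass in 7 of 19 alternatives, among them sections thinned to one total, the score without its highest gene, and without Ctr-2. None of 11 tested genes for collagen processing, 9 of the basement membrane or 17 of the integrin and talin adhesion complex passed, with medians of -0.05, -0.02 and -0.03. None of 10 tested tenocyte transcription factor and growth factor genes passed. Among them Scx, the transcription factor that marks tenocytes, had 37 counts in marker-rich and 72 in marker-poor sections and a log2 fold of 0.79 ± 0.29 (edgeR adjusted p = 0.217).

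Genes that the tips of the fibres are known to transcribe were at the edge of detection. Of 10 listed, 4 could be tested, all with positive log2 folds and none past the threshold. Tigd4 had 26 counts in marker-rich and 25 in marker-poor sections, a log2 fold of 1.61 ± 0.53 (edgeR adjusted p = 0.138), Ankrd1, a stretch-responsive titin-binding repeat protein, 0.36 ± 0.19, and Itga7 and Lamb2, the fibre's laminin receptor and a laminin chain, 0.12 ± 0.11 and 0.09 ± 0.11. The remaining 6 were too sparse to test, among them Col24a1 with 3 counts in marker-rich and 7 in marker-poor sections, Adamts20 with 2 in marker-rich and 0 in marker-poor, and Maml2 with 15 in marker-rich and 65 in marker-poor sections. These are raw counts, not scaled for the deeper marker-poor sums. The summed level of the whole list ran from 65.5 to 81.2 CPM in marker-rich sections and from 48.5 to 73.4 CPM in marker-poor sections, and was higher in marker-rich sections of each muscle. Since none of these genes passed, the sections are called marker-rich here.

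**Figure D2:**
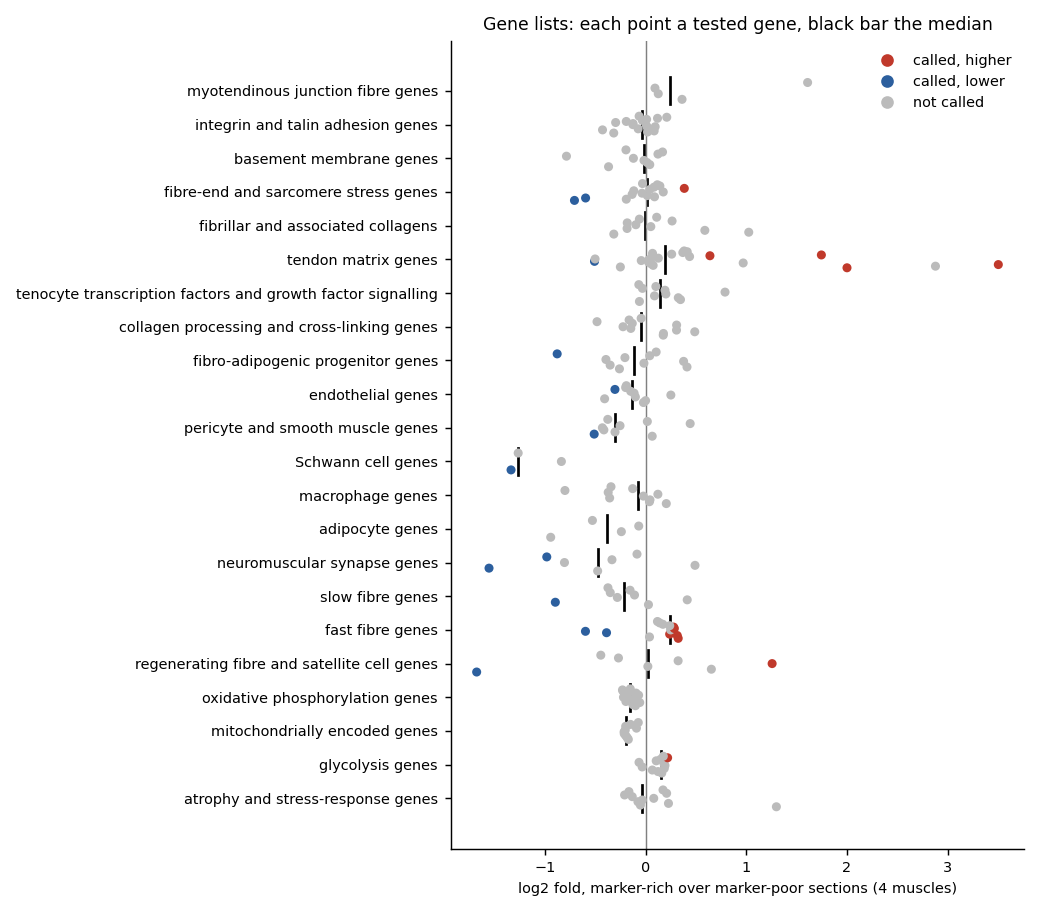
Log2 fold of marker-rich over marker-poor sections (horizontal axis) for each tested gene of 22 gene lists, one list per row, with called genes in red (higher) or blue (lower), uncalled genes in grey and the list median as a black bar. Tendon matrix genes reach furthest to the right (Cilp2, 3.50), and Schwann cell genes have the lowest median, -1.27.

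Of the 10 leading genes that rose, Mss51 had the largest log2 fold. Mss51 encodes a mitochondria-associated protein of skeletal muscle (14:20482867-20496901). It had 73.2, 68.5, 56.1 and 26.2 CPM in marker-rich sections of WT-1, WT-2, Ctr-1 and Ctr-2, against 17.7, 19.97, 15.4 and 14.4 CPM in marker-poor sections. The 2 regions did not overlap, and Ctr-2 had the smallest gap. The log2 fold was 1.72 ± 0.13 (edgeR adjusted p = 1.41e-09). Along the barcode order Mss51 was high at both ends: over 5 equal parts of the kept sections, first to last, its mean was 22.5, 13.3, 13.2, 28.1 and 70.1 CPM in WT-1, and 29.0, 11.3, 3.11, 7.79 and 61.2 CPM in Ctr-2. The middle part was the lowest and the last part the highest in all 4 muscles.

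Lower in the marker-rich sections was Actc1, the cardiac actin that skeletal muscle makes in development and regeneration (2:114047282-114053548). Actc1 had 40.1, 24.3, 62.9 and 68.5 CPM in marker-rich sections, against 187, 105, 196 and 157 CPM in marker-poor sections. Every marker-rich value lay below every marker-poor value, and the log2 fold was -1.68 ± 0.11 (edgeR adjusted p = 1.42e-10). Over the same 5 parts, Actc1 was the lowest in the last one in all 4 muscles, with 36.4 CPM there in WT-1 against 206 CPM in part 2. Myl4, an embryonic and atrial light chain of the same list, rose (4.51 ± 1.57 CPM in marker-rich and 2.00 ± 1.01 CPM in marker-poor sections, SD, n = 4 each; log2 fold 1.25 ± 0.31, edgeR adjusted p = 0.0262), and lost its call without WT-1, WT-2 or Ctr-1. The other 5 tested members of the regenerating fibre and satellite cell list did not pass, and the list median was 0.02.

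**Figure D3:**
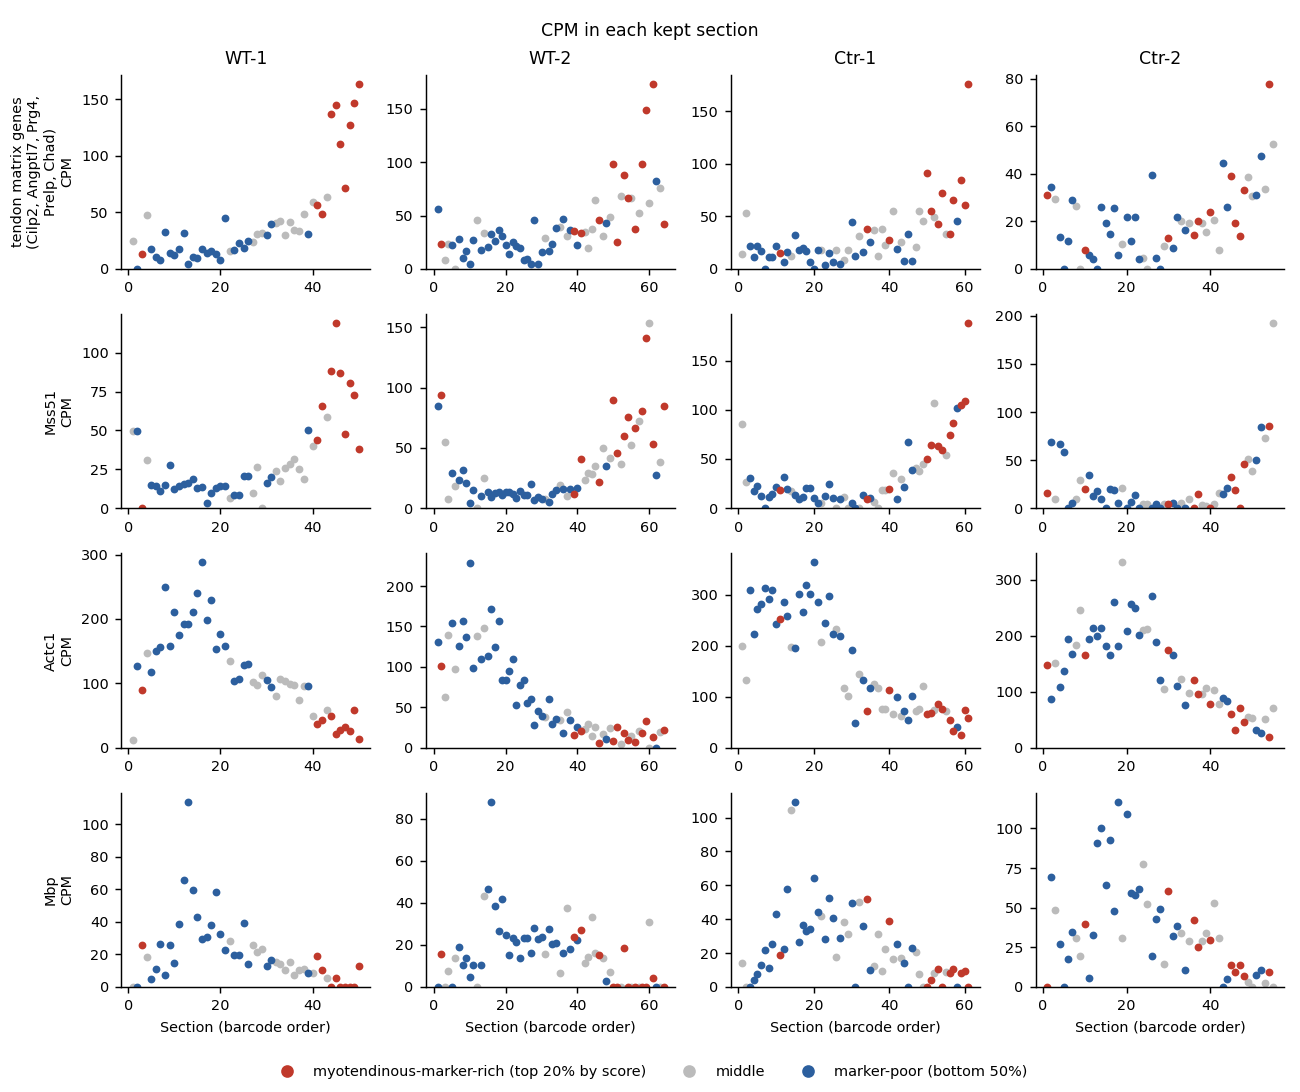
CPM (vertical axes) in each kept section against its place in barcode order (horizontal axes) for 5 tendon matrix genes summed, Mss51, Actc1 and the myelin gene Mbp, by muscle, with marker-rich sections in red, middle sections in grey and marker-poor sections in blue. The 5 matrix genes are the 4 called higher (Cilp2, Angptl7, Prg4 and Prelp) and Chad, which was chosen after its values were seen. They were picked for rising and do not stand for the whole list. Their sum and Mss51 climb toward the last sections, and Actc1 is the lowest there. Mbp peaks in part 2 of 5 equal parts of the order in all 4 muscles.

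Of 13 fast-fibre genes, all tested, 5 were higher, 2 lower and 6 not called, with a median log2 fold of 0.24. Among all tested genes 0.936% were called higher and 1.05% lower. With library-size scaling 10 were higher and 2 lower. Actn3, the fast-fibre alpha-actinin, had 1290.3, 1056, 1223 and 1389 CPM in marker-rich sections, against 1023, 842, 947 and 1164 CPM in marker-poor sections. It was higher in each muscle by a narrow margin, a log2 fold of 0.32 ± 0.05 (edgeR adjusted p = 0.000746). Casq1, calsequestrin of fast fibres, had a log2 fold of 0.31 ± 0.06, Myl1 0.28 ± 0.06, Mylpf 0.28 ± 0.06 and Mybpc2 0.24 ± 0.06. The 2 that fell were myosin heavy chains of the less glycolytic fast fibres. Myh2, of type IIa fibres, had 115, 123, 78.1 and 129.5 CPM in marker-rich sections, against 186, 213, 114 and 173 CPM in marker-poor sections, a log2 fold of -0.60 ± 0.07 (edgeR adjusted p = 6.95e-06). Myh1, of type IIx fibres, fell by less (log2 fold -0.39 ± 0.07, edgeR adjusted p = 0.00141) and lost its call without WT-1. Myh4, of type IIb fibres, averaged 11369 ± 1678 CPM in marker-rich sections and 9714 ± 2448 CPM in marker-poor sections (SD, n = 4 each) and just missed the threshold (log2 fold 0.25 ± 0.07, edgeR adjusted p = 0.0505).

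Of 8 slow-fibre genes tested, 1 fell (share over all tested genes 1.05%) and 7 did not pass, and the median log2 fold was -0.22. The one called, Casq2, the calsequestrin of slow and cardiac muscle, had 9.65, 6.79, 6.85 and 14.3 CPM in marker-rich sections, against 17.6, 21.4, 14.1 and 19.6 CPM in marker-poor sections (log2 fold -0.90 ± 0.16, edgeR adjusted p = 0.00173). Only Ctr-2's marker-rich sections reached the marker-poor range. Myh7, the slow myosin itself, had 8 counts in marker-rich and 16 in marker-poor sections and could not be tested. Those raw counts are not scaled for the deeper marker-poor sums and do not show a fall.

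Oxidative genes had small negative log2 folds and glycolysis genes mostly small positive ones. None of 17 oxidative phosphorylation genes and none of 10 mitochondrially encoded genes passed, yet all 27 had negative log2 folds, with medians of -0.15 and -0.19. With library-size scaling 2 and 1 of them turned positive, and the medians were -0.07 and -0.11. Among 12 glycolysis genes 1 passed, Pygm, muscle glycogen phosphorylase, at 3133 ± 194 CPM in marker-rich sections and 2698 ± 207 CPM in marker-poor sections (SD, n = 4 each; log2 fold 0.22 ± 0.05, edgeR adjusted p = 0.0350). Their median was 0.15, and with library-size scaling 7 of the 12 passed. Pygm lost its call without WT-1, WT-2 or Ctr-1.

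Car3 and Tmem100 rose as well. Car3, carbonic anhydrase 3, a major soluble muscle protein, had 3906, 3494, 2779 and 2195 CPM in marker-rich sections, against 1772, 2210.4, 1600.4 and 1503 CPM in marker-poor sections. The lowest marker-rich value, in Ctr-2, was just under the highest marker-poor value, in WT-2, and the log2 fold was 0.79 ± 0.07 (edgeR adjusted p = 7.31e-08). Tmem100, a membrane protein known from endothelium and sensory neurons, had 144, 104, 217 and 104 CPM in marker-rich sections, against 60.3, 47.3, 119 and 61.2 CPM in marker-poor sections (log2 fold 0.99 ± 0.08, edgeR adjusted p = 4.85e-09). It was higher in each muscle, though the marker-poor value of Ctr-1 exceeded 2 of the marker-rich values. The other leading genes that rose were Ighm, the constant region of IgM heavy chain (log2 fold 0.75 ± 0.13), Cbr2, a carbonyl reductase (0.66 ± 0.09), Ctxn3, a small membrane protein (0.66 ± 0.10), Itpr1, the inositol trisphosphate receptor calcium channel (0.66 ± 0.11), Mllt11 (0.61 ± 0.11), Tmem37 (0.53 ± 0.09) and Ttll7, a tubulin-modifying enzyme (0.51 ± 0.09). Without WT-1, Ighm, Itpr1 and Mllt11 no longer passed, and without Ctr-1 Tmem37 did not.

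**Figure D4:**
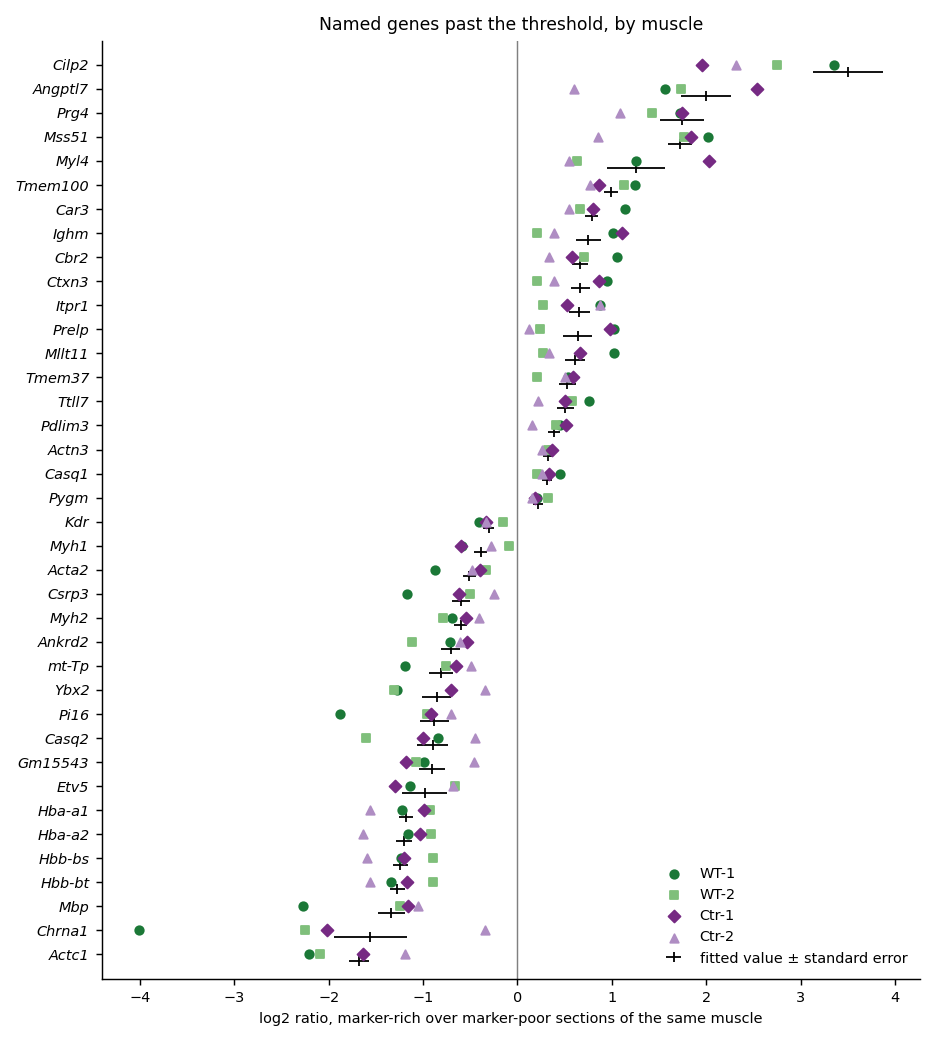
Log2 ratio of marker-rich over marker-poor sections (horizontal axis, TMM-scaled CPM with a prior count of 2) in each of the 4 muscles for the 38 named genes past the threshold, with the fitted log2 fold and its standard error as a black cross. All 4 muscles lie on the same side of 0 for each gene. The rule required this of the 19 leading genes, and the test with muscle as a block favours it in the rest. For Mbp WT-1 lies apart from the others at -2.27, and for sparse genes such as Cilp2 the prior count draws the points toward 0.

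Genes that answer mechanical load in the fibre did not move together. Of 15 genes of fibre ends and sarcomere stress, 1 rose and 2 fell (shares over all tested genes 0.936% and 1.05%), and the median was 0.01. Pdlim3, a partner of alpha-actinin at the Z-disc, rose (266 ± 50.3 CPM in marker-rich and 205 ± 39.9 CPM in marker-poor sections, SD, n = 4 each; log2 fold 0.38 ± 0.06, edgeR adjusted p = 0.000737). Csrp3, the Z-disc protein MLP, had 48.3, 199, 69.5 and 63.6 CPM in marker-rich sections, against 109, 282, 107 and 75.4 CPM in marker-poor sections (log2 fold -0.60 ± 0.09, edgeR adjusted p = 0.000225). Ankrd2, a stretch-responsive relative of Ankrd1, fell as well (log2 fold -0.71 ± 0.10, edgeR adjusted p = 0.000161). None of 11 atrophy and stress-response genes passed, with a median of -0.04.

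Mbp, a myelin gene of Schwann cells, was lower in the marker-rich sections. The Schwann cell list had 9 genes, of which 3 could be tested and 1 fell (share over all tested genes 1.05%). All 3 log2 folds were negative, with a median of -1.27. In bulk sections fewer cells of a type and less RNA per cell cannot be told apart. Mbp, myelin basic protein, had 7.11, 11.9, 10.9 and 19.4 CPM in marker-rich sections, against 35.6, 28.7, 24.9 and 40.7 CPM in marker-poor sections. The groups did not overlap, and the log2 fold was -1.34 ± 0.14 (edgeR adjusted p = 1.64e-06). Sox10, a Schwann cell transcription factor, had 16 counts in marker-rich and 112 in marker-poor sections and a log2 fold of -1.27 ± 0.46, and Pmp22, a membrane protein of myelin, had a log2 fold of -0.84 ± 0.24; neither passed (edgeR adjusted p = 0.202 and 0.0684). The summed level of all 9 genes was 10.4 to 31.5 CPM in marker-rich sections and 33.7 to 61.1 CPM in marker-poor sections, lower in each muscle, and no member was at 0 in all sums, though Cdh19 was at 0 in every marker-rich sum. Mbp was highest in part 2 of the 5 equal parts of the barcode order in each muscle, at 50.9, 33.0, 51.3 and 73.0 CPM, against 5.19, 4.46, 5.71 and 7.05 CPM in the last part.

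Of 7 neuromuscular synapse genes tested, 2 fell (share over all tested genes 1.05%) and 5 did not pass, and the median log2 fold was -0.48. Chrna1, the alpha subunit of the muscle acetylcholine receptor, had 0, 0.566, 0.761 and 4.28 CPM in marker-rich sections, against 5.30, 4.02, 4.14 and 5.51 CPM in marker-poor sections (log2 fold -1.56 ± 0.38, edgeR adjusted p = 0.0278). Etv5, a transcription factor of subsynaptic nuclei, had a log2 fold of -0.98 ± 0.24 (edgeR adjusted p = 0.0269). Chrna1 lost its call without WT-1, WT-2 or Ctr-1, and Etv5 without any one of the 4 muscles. The summed level of the 13 synapse genes was 31.7 to 53.0 CPM in marker-rich sections and 30.9 to 64.8 CPM in marker-poor sections, lower in marker-rich sections of 3 muscles and higher in WT-2 (32.7 CPM in marker-rich and 30.9 CPM in marker-poor sections). Chrnb1, the beta subunit of the receptor, did not pass and had a positive log2 fold, 0.49 ± 0.21 (edgeR adjusted p = 0.325).

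Of the vascular and stromal lists, 3 had 1 called gene each, all lower (share over all tested genes 1.05%). Endothelial genes had 1 of 10 called and a median log2 fold of -0.13: Kdr, the receptor for vascular endothelial growth factor (182 ± 70.8 CPM in marker-rich and 224 ± 85.5 CPM in marker-poor sections, SD, n = 4 each; log2 fold -0.31 ± 0.06, edgeR adjusted p = 0.00549), which lost its call without WT-1 or Ctr-1. Pericyte and smooth muscle genes had 1 of 9 and a median of -0.31: Acta2, smooth muscle actin, with 225, 430.2, 208 and 395 CPM in marker-rich sections, against 412, 543, 274 and 550.5 CPM in marker-poor sections (log2 fold -0.51 ± 0.07, edgeR adjusted p = 6.03e-05). The summed level of the endothelial list was 336 to 395 CPM in marker-rich sections and 345 to 452 CPM in marker-poor sections, and that of the pericyte list 405 to 662 CPM in marker-rich and 553 to 827 CPM in marker-poor sections, both lower in marker-rich sections of 4 of 4 muscles. Fibro-adipogenic progenitor genes had 1 of 10 and a median of -0.11: Pi16, a marker of adventitial fibroblasts (log2 fold -0.88 ± 0.15, edgeR adjusted p = 0.00108). None of 10 macrophage or 4 adipocyte genes passed, with medians of -0.08 and -0.39. Skin, bone and cartilage genes were all too sparse to test: their sum was 0.318 to 0.964 CPM in marker-rich sections and 0.248 to 14.8 CPM in marker-poor sections, with Col10a1, Sost and Krt14 at 0 throughout. The high end came from WT-2, where Ibsp, bone sialoprotein, had 184 counts spread over 26 sections, 1 of those counts in marker-rich sections.

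Haemoglobin RNA was lower in the marker-rich sections. The 4 adult globin genes together gave 1964, 2530, 4108 and 10021 CPM in marker-rich sections of WT-1, WT-2, Ctr-1 and Ctr-2, against 4437, 4226, 8052 and 29378 CPM in marker-poor sections. It was lower in every muscle. Log2 folds were -1.18 ± 0.08 for Hba-a1, -1.20 ± 0.08 for Hba-a2, -1.24 ± 0.08 for Hbb-bs and -1.27 ± 0.08 for Hbb-bt (edgeR adjusted p = 1.47e-10, 4.91e-10, 1.42e-10 and 1.42e-10). Hba-a1 and Hba-a2, and likewise Hbb-bs and Hbb-bt, are near-identical copies between which reads were divided, so their separate values are uncertain. Globin RNA followed barcode order more closely than score: Spearman correlations of Hbb-bs with order were -0.94 to -0.85 in the 4 muscles, and with score -0.65 to -0.44. Alas2, the red cell enzyme of haem synthesis, chosen for mention after its values were seen, fell too (log2 fold -1.16 ± 0.18, edgeR adjusted p = 0.000376). The remaining leading genes that fell were Gm15543 (log2 fold -0.91 ± 0.14), Ybx2, a nucleic-acid-binding Y-box protein (-0.86 ± 0.16), which lost its call without WT-1, and mt-Tp, the mitochondrial proline tRNA (-0.81 ± 0.13).

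Because most marker-rich sections were late in barcode order, the comparison was repeated within the later 50% of the kept sections of each muscle, an alternative chosen after seeing the data. It called 31 genes, 27 of them shared with the 178. Of the 37 named genes it could test, 15 kept their call, and none changed sign. Mss51 had a log2 fold of 1.49 there, Cilp2 2.24, Angptl7 1.52, Prg4 1.42 and Mbp -1.10, each still past the threshold. Actc1 remained called at a smaller log2 fold of -0.89. Hba-a1, Hba-a2, Hbb-bs and Hbb-bt had log2 folds of -0.35, -0.40, -0.45 and -0.49, and of these Hbb-bs alone passed (edgeR adjusted p = 0.0480). Actn3, Casq1, Pygm, Pdlim3 and Casq2 no longer passed. Score still ran with barcode order there. Over parts 3, 4 and 5 of the 5 equal parts, the mean score rose in all 4 muscles (70.6, 96.4 and 173.8 CPM in WT-1). Mss51 rose over these parts in all 4 muscles too (3.11, 7.79 and 61.2 CPM in Ctr-2). The repeat therefore cannot separate score from barcode order.

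The middle sections entered neither sum. For the 19 leading genes, which were chosen for large differences of one sign, the mean over muscles in middle sections was between the marker-rich and marker-poor means in 19 cases, and in all 4 muscles for 17. Other called genes were less regular: the middle value lay between in 2 of 4 muscles for Prg4, Kdr, Pi16 and Etv5, and in 1 of 4 for Myl4. Mss51 averaged 56.5 CPM in marker-rich, 25.1 in middle and 17.1 in marker-poor sections, and Actc1 49.5 CPM in marker-rich, 91.8 in middle and 163 in marker-poor sections.

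The WT and Ctr muscles were compared in their regional difference, the log2 fold of marker-rich over marker-poor sections. A test of WT minus Ctr called 2 of 8976 genes (0.0223%), both lower, with 429 at an unadjusted p below 0.05. These were the metallothioneins Mt2 and Mt1, which bind zinc and copper. Mt2 had 4.06 and 2.26 CPM in marker-rich sections of WT, against 22.6 and 3.04 in marker-poor sections. In Ctr it had 209 and 3.71 CPM in marker-rich sections, against 138 and 4.09 in marker-poor sections. The log2 fold was -2.03 in WT and 0.55 in Ctr, a difference of -2.59 ± 0.39 (edgeR adjusted p = 0.00966). For Mt1 the difference was -1.59 ± 0.24 (edgeR adjusted p = 0.00966). Ctr-1 stood far above the other muscles in both regions, and neither gene was called without WT-1 or without Ctr-1, or by DESeq2. Without WT-2, 4 genes were called.

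The same scoring in the 3 DMD muscles gave 38 marker-rich and 95 marker-poor sections. There the marker-rich sections were spread differently: 6, 6 and 1 lay in the first of 3 equal parts of the barcode order in DMD-1, DMD-2 and DMD-3, and 6, 7 and 10 in the last. The regional difference in DMD minus that in non-dystrophic muscles was called for 14 of 11597 genes (0.121%), 9 of them higher (0.0776%) and 5 lower (0.0431%), with 675 at an unadjusted p below 0.05. Of the 19 leading genes 8 were among them, and for 13 of the 19 both log2 folds had one sign. The leading genes were chosen for large log2 folds in the non-dystrophic muscles, and those values also enter the difference. This choice favours a smaller fold in DMD and a called difference, so the 8 are no separate result about the leading genes.

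Mss51 showed a smaller regional difference in DMD. Its marker-rich sections had 35.2, 35.1 and 50.5 CPM in DMD-1, DMD-2 and DMD-3, against 29.3, 21.5 and 29.8 CPM in marker-poor sections. It was higher in marker-rich sections of each DMD muscle, but by less: the log2 fold was 0.53 in DMD and 1.70 in non-dystrophic muscles, a difference of -1.17 ± 0.19 (edgeR adjusted p = 0.00336). For Car3 the log2 fold was 0.13 in DMD and 0.78 in non-dystrophic muscles, a difference of -0.65 ± 0.12. For Tmem37 it was -0.19 in DMD and 0.52 in non-dystrophic muscles (-0.71 ± 0.15). For Pla2g7, a secreted enzyme that cleaves platelet-activating factor, it was -0.27 in DMD and 0.28 in non-dystrophic muscles (-0.55 ± 0.11). Igfn1, a Z-disc protein of muscle chosen for mention after its values were seen, was the fifth that was lower, at -1.47.

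The 4 globin genes had a called difference between DMD and non-dystrophic muscles. Hbb-bt had 137, 134 and 294 CPM in marker-rich sections of the DMD muscles, against 121, 161 and 203 CPM in marker-poor sections. The log2 fold was 0.18 in DMD and -1.27 in non-dystrophic muscles, a difference of 1.45 ± 0.15 (edgeR adjusted p = 2.23e-06). Hba-a2, Hbb-bs and Hba-a1 had differences of 1.41 ± 0.22, 1.40 ± 0.21 and 1.37 ± 0.18. These calls depended on the processing: Hba-a2, Hbb-bs, Hba-a1 and Hbb-bt lost theirs in 11, 10, 9 and 4 of 21 alternatives. All 4 globin genes lost their call with the mean z-score in place of summed CPM and with a stricter smallest section total. They also lost it without the replicate block and within the later sections of the barcode order. Plin3, a coat protein of lipid droplets, had 19.3, 25.1 and 10.7 CPM in marker-rich sections of DMD, against 12.7, 15.5 and 9.92 CPM in marker-poor sections. Its log2 fold was 0.52 in DMD and -0.75 in non-dystrophic muscles, a difference of 1.28 ± 0.19 (edgeR adjusted p = 0.00117). For Actc1 the log2 fold was -0.81 in DMD and -1.70 in non-dystrophic muscles, a difference of 0.90 ± 0.17 (edgeR adjusted p = 0.0245).

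Cilp2 and Mbp did not show a called difference between DMD and non-dystrophic muscles. The log2 fold of Cilp2 was 1.92 in DMD and 3.50 in non-dystrophic muscles (difference -1.58 ± 0.55, edgeR adjusted p = 0.702), and that of Mbp -1.02 in DMD and -1.35 in non-dystrophic muscles (0.33 ± 0.23). The number of called differences between DMD and non-dystrophic muscles changed with the muscles included. Without DMD-1, 2 genes were called, without WT-1 3 and without Ctr-1 9. Mss51, Car3, Plin3, Tmem37, Pla2g7 and every globin gene but Hbb-bt lost their call without DMD-1. Car3, Tmem37, Pla2g7, Hba-a1, Hba-a2 and Hbb-bs lost it without WT-1, Car3, Tmem37 and Pla2g7 without Ctr-1, and Hba-a2 and Pla2g7 without WT-2. Tmem37 and Pla2g7 each lost their call in 17 of 22 alternatives. Within the later 50% of the barcode order, with fewer sections and 10119 genes tested, 0 genes were called by edgeR (413 at an unadjusted p below 0.05).

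**Figure D5:**
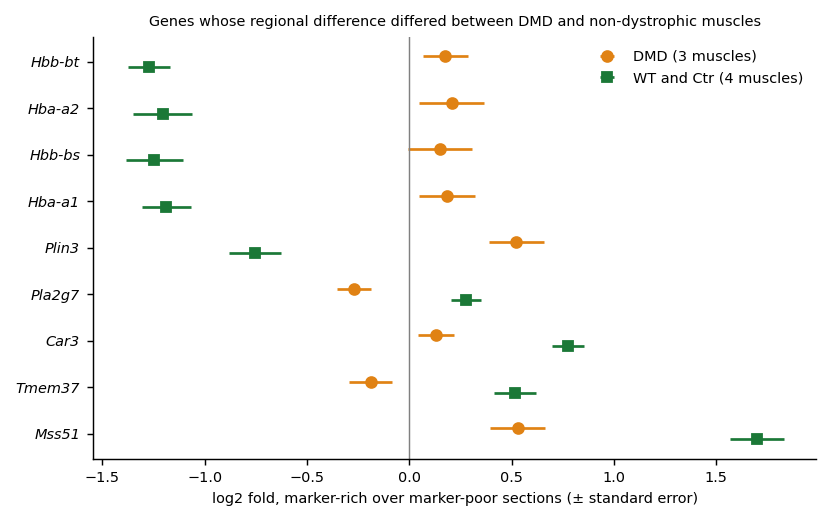
Fitted log2 fold of marker-rich over marker-poor sections with its standard error (horizontal axis) in DMD (orange circles, 3 muscles) and in WT and Ctr muscles together (green squares, 4 muscles) for the 9 named genes whose regional difference differed. The globin genes lie near 0 in DMD and below -1 in the non-dystrophic muscles, and Mss51 lies at 0.53 in DMD and 1.70 in the non-dystrophic muscles.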

How the data were processed

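The authors deposited 1 table per muscle with 1 column per cryosection. Per the file headers, the values are expected counts from featureCounts 2.0.1 (multi-mapped and multi-overlapping reads split into fractions, forward strand). Per the submitters' processing notes, the aligner was STAR 2.7.7a and the genome GRCm38. Per the labels, polyA RNA of single sections was barcoded with molecular identifiers of 8 bases. The WT tables used another annotation than the Ctr and DMD tables, so the 53083 genes shared by name and length were used.

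Expected counts of the kept sections were summed per muscle and region and rounded to whole numbers. edgeR 4.0.16 (R 4.3.3) was run with filterByExpr, TMM scaling, robust quasi-likelihood F tests and muscle as block, which pairs the 2 regions of one muscle. Benjamini-Hochberg adjustment covered all genes tested, without the 4 scoring genes; a gene was called below 0.05. Differences between groups were interaction terms. The ± after a log2 fold is its absolute value divided by the square root of F; CPM beside folds are TMM-scaled, those of single sections, of parts of the barcode order and of list sums are not. Sections were never counted as replicates. The method was tested on simulated data, sums with known folds. The simulation held neither the choice of sections by score nor a trend along barcode order, so it does not cover those.

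Named genes were the 10 called genes per direction that changed most on the log2 scale, had a 20 CPM mean or more in the higher region and one sign in 4 muscles, up to 4 members of each of 23 lists (called ones first), and up to 5 (DMD) or 3 (WT against Ctr) per direction for the differences. A gene that this rule also names, and that 1 list held, is not reported here. The sections, lists and genes were chosen with earlier results of these data known. Alternatives covered scaling, filter, DESeq2 1.42.0, the block, the section score and filters, thinning, and leaving out each muscle. Sections were selected and tested in the same libraries, so the tests hold no independent sample.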

Additional observations from a re-analysis of the deposited data

Results flagged for a closer look

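Among 104 named genes, 4 had one muscle whose log2 ratio of marker-rich over marker-poor sections lay far from the other 3 (beyond Dixon's 95% critical value), which chance gives in about 1 of 20 genes. All 4 times the muscle was WT-1. Its log2 ratios were 2.05 for Col1a1, 0.0248 for Fabp4, 0.8288 for Scd1 and -2.27 for Mbp.

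Regional differences that differed between DMD and non-dystrophic muscles by the interaction test were, as DMD minus non-dystrophic on the log2 scale, 1.45 for Hbb-bt, 1.41 for Hba-a2, 1.40 for Hbb-bs, 1.37 for Hba-a1, 1.28 for Plin3, -1.17 for Mss51, -0.71 for Tmem37, -0.65 for Car3 and -0.55 for Pla2g7. As WT minus Ctr they were -2.59 for Mt2 and -1.59 for Mt1.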

How the results depend on the processing

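No called named gene changed sign under the alternatives run, whereas some uncalled named genes did, such as Fabp4 with log2 folds from -0.34 to 0.02 and Cfd from -1.47 to 0.88. The 178 genes called between regions became 87 with DESeq2, 292 with no filter on low counts (29.8% of them higher, against 47.2%), 111 against all other sections, 82 with sections thinned to one total and 31 within the later 50% of the barcode order (chosen after seeing the data), and ranged from 94 to 167 with 1 muscle left out. Library-size scaling gave 229 calls, 73.8% of them higher. Without the replicate block, which pairs both regions of a muscle, 0 genes were called (135 at an unadjusted p below 0.05). Of the 38 named genes called, DESeq2 kept 33; the mean z-score and the stricter total of 50% of the median each lost all 4 globin genes. The 14 differences between DMD and non-dystrophic muscles became 9 with DESeq2-style size factors, 5 with library size only, 8 with DESeq2, 32 with no filter, 7 with a filter of 10 CPM, 0 without the replicate block, 8 with the top 10% of sections, 9 against all other sections, 26 with the z-score, 26 without the highest scoring gene, 4 with 50% of the median, 9 with thinning, 6 without mitochondrial and haemoglobin genes, 0 within the later 50%, and 2 to 14 with 1 muscle left out. The 2 differences between WT and Ctr became 0 with library size only, DESeq2, no replicate block, the top 10%, all other sections, 50% of the median and the later 50% of sections, 6 with no filter, 4 with the 10 CPM filter, 1 with the z-score, and 0 to 4 with 1 muscle left out. The cause of these changes was not tested. Depth limits the sparse genes: junction genes of the fibre tip, Schwann cell and synapse genes rest on few counts per sum.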

Other observations

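Groups of genes outside the lists above were looked up after the called genes had been seen, so their counts are descriptions without a test of the group. Of 22 genes for the uptake and oxidation of fatty acids, all tested, 8 fell in the marker-rich sections and none rose. Over all tested genes 1.05% were called lower, and the median log2 fold was 0.00 (0.0048). All 22 log2 folds of the group were negative, with a median of -0.31 (20 of 22 negative with library-size scaling). Lpl, lipoprotein lipase, had 591, 455, 1011 and 1123 CPM in marker-rich sections of WT-1, WT-2, Ctr-1 and Ctr-2, against 1023, 733, 1969 and 1607 CPM in marker-poor sections (log2 fold -0.74 ± 0.06, edgeR adjusted p = 3.37e-08). Cd36, the fatty acid transporter, and Fabp3, the muscle fatty acid binding protein, had log2 folds of -0.52 ± 0.07 and -0.50 ± 0.06 (edgeR adjusted p = 0.000132 and 1.59e-05). Ldhb, the lactate dehydrogenase subunit of oxidative tissue, and Mb, myoglobin, fell by 0.78 and 0.30 on the log2 scale. All 5 genes were lower in 4 of 4 muscles.

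Of 11 tested genes of polyamine synthesis and turnover, 4 rose and none fell, with a median of 0.11. Over all tested genes 0.936% were called higher. Odc1, ornithine decarboxylase, had 42.7, 31.1, 52.3 and 35.7 CPM in marker-rich sections, against 33.6, 18.9, 35.7 and 26.7 CPM in marker-poor sections (log2 fold 0.49 ± 0.10, edgeR adjusted p = 0.00312). Amd1 and Amd2, adenosylmethionine decarboxylases that are near-identical copies and uncertain one by one, had log2 folds of 0.35 ± 0.06 and 0.32 ± 0.06, and Smox, spermine oxidase, 0.24 ± 0.06. All 4 were higher in 4 of 4 muscles.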
